A study of Mus musculus with 27 samples.

Results

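Gene expression was compared between Foxp3+ and Foxp3- thymocytes that were both sorted at an intermediate level of the surface protein CD24. The comparison held 6 of the 27 Affymetrix 3′ expression arrays of the study, 3 in each group, and covered all 18194 genes that could be named from a single-symbol probe set. All cells came from mice of the BALB/c background and were labelled T-Lymphocytes. The study set Foxp3+ cells from the thymus, at high (CD24hi), intermediate (CD24int) and low CD24 (CD24lo), beside Foxp3- cells of the same CD24 level, with thymic Treg precursors, lymph node Tregs and lymph node naive T cells as further groups. The labels give GFP beside Foxp3, as Foxp3+GFP+ for the Foxp3+ cells and Foxp3-GFP- for the Foxp3- cells. The subtype labels of both groups held the word Treg, and the study's design names the Foxp3- cells as the conventional T cell counterpart. They are called Foxp3+ and Foxp3- cells here. The ages, the sexes, the sorting gates and the number of mice behind an array are not given in the sources used here. No label says that the 3 arrays of a group came from separate animals, so each p-value measures only a spread between arrays. That spread was pooled within groups over all 27 arrays, not over the 6 compared here alone.

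Foxp3 is a transcription factor of the forkhead family and defines regulatory T cells (Tregs), which restrain immune responses to the body's own tissues. In the thymus, CD4 single-positive cells that receive a strong signal through the T cell receptor and then a signal from interleukin-2 through the STAT5 proteins can switch Foxp3 on. CD24 is a glycoprotein at the surface of immature thymocytes that is lost as single-positive cells mature, so the intermediate level lies between newly formed and mature single-positive cells. Tregs display the high-affinity interleukin-2 receptor, costimulatory receptors of the TNF receptor family and the inhibitory receptor CTLA-4.

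The sort was read first from the genes that define it. All values below are RMA intensities on the log2 scale, differences are Foxp3+ minus Foxp3- with their standard error, and p-values come from limma, adjusted by the Benjamini-Hochberg method over all genes. Foxp3 stood at 9.94, 10.12 and 10.16 on the Foxp3+ arrays and at 4.03, 3.54 and 3.89 on the Foxp3- arrays. Its difference was 6.25 ± 0.17, which is 76.2-fold (adjusted p = 1.47e-18), and the arrays of each group lay far from those of the other. The study separates thymocytes by CD25 as well, so Il2ra, the gene of CD25, was read with the sort. Il2ra was at 10.01, 10.44 and 10.33 on the Foxp3+ arrays and at 4.00, 4.55 and 4.42 on the Foxp3- arrays, a difference of 61.3-fold. Cd24a, the gene of CD24, reached 8.47, 9.25 and 9.52 on the Foxp3+ arrays and 7.41, 8.44 and 8.78 on the Foxp3- arrays. These ranges overlapped and the difference of 0.87 ± 0.42 did not pass (adjusted p = 0.201). The Foxp3+ array was the higher one at each of the 3 replicate numbers, and the difference passed in the fit with a replicate block (adjusted p = 0.00402, the lowest of 13 alternatives, which reached 0.597). Its means at CD24hi were 10.34 in Foxp3+ and 10.93 in Foxp3- cells and at CD24lo 7.63 and 6.00, so both CD24int groups lay between the groups of their own Foxp3 state.

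The cells carried the transcripts of T cells in both groups. Cd3d, a chain of the T cell receptor complex, lay between 12.45 and 12.84 on all 6 arrays, with a difference of -0.14 (adjusted p = 0.617). Cd4, the coreceptor, was at 8.51, 8.49 and 8.73 against 9.32, 8.86 and 9.15, a fall of 0.54 ± 0.16 (adjusted p = 0.0213). That call was lost without Foxp3+ replicate 1, Foxp3+ replicate 2, Foxp3- replicate 1 or Foxp3- replicate 3. Cd8a, the coreceptor of the CD8 lineage, lay between 4.76 and 5.57 on all 6 arrays and its difference of 0.54 did not pass (adjusted p = 0.134). Rag1, an enzyme of receptor gene rearrangement that marks earlier thymocytes, lay between 3.44 and 4.30. In sorted populations measured in bulk, fewer cells of a type and less RNA per cell cannot be told apart.

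Between the groups, 2779 of 18194 genes passed at an adjusted p under 0.05, which is 15.3% of genes. Of these, 1575 rose in Foxp3+ cells (8.66% of genes tested) and 1204 fell (6.62%). After quantile normalization of the arrays 1506 rose and 1502 fell. The rises reached further than the falls. At least 2-fold rises numbered 522 (2.87%) and falls 299 (1.64%), at least 4-fold rises 149 and falls 62, and at least 16-fold rises 15 and falls 0. The median passing rise was 0.75 and the median passing fall -0.65, while the median over all genes was -0.01. In 4657 genes (25.6%) the 3 Foxp3+ arrays and the 3 Foxp3- arrays did not overlap, and 1509 of the passing rises (8.29%) and 1168 of the passing falls (6.42%) were among them. Among passing genes, 1695 were measured by several probe sets, and in 3 of these, Cd247, Chd9 and Dst, another probe set passed in the opposite direction (Chd9 was chosen after its values were seen). The first principal component of these 6 arrays held 64.2% of the variance and separated the Foxp3+ from the Foxp3- arrays. The second held 16.9% and rose with the replicate number in both groups. In order of replicate it was -29.2, 10.7 and 17.6 on the Foxp3+ arrays and -14.1, 0 and 15.0 on the Foxp3- arrays.

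**Figure D1:**
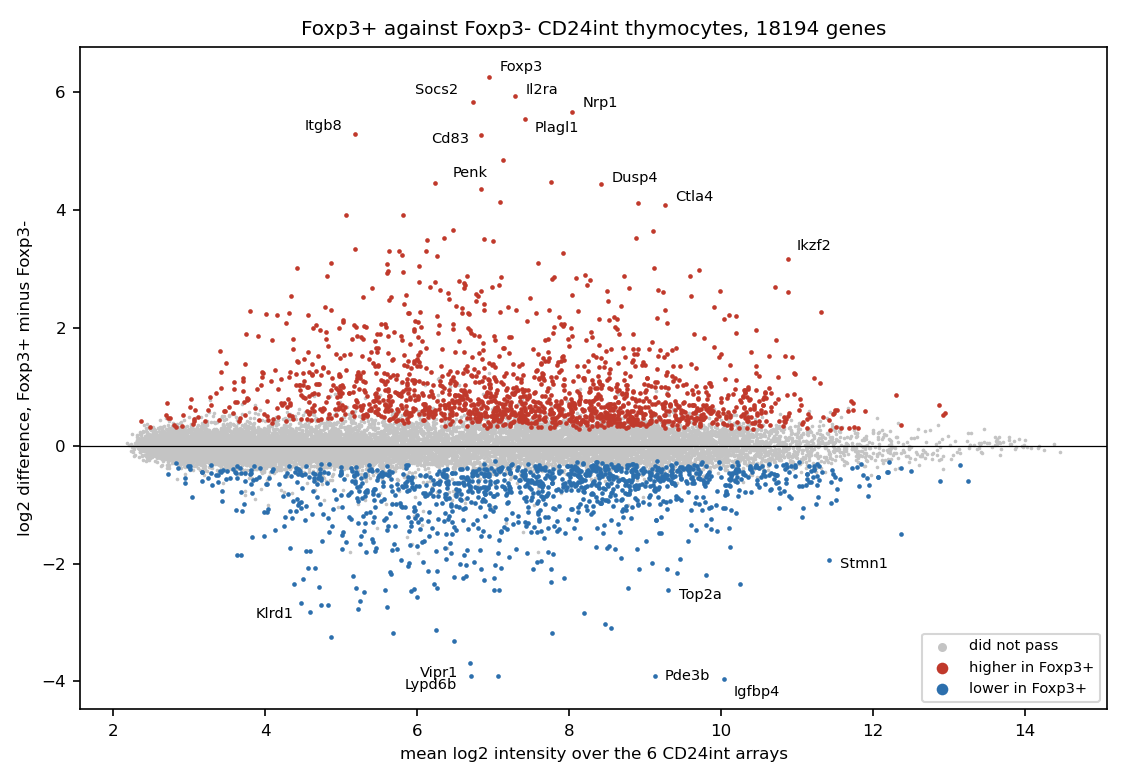
Each point is one of the 18194 genes, placed by its mean log2 intensity over the 6 CD24int arrays (horizontal) and by its difference, Foxp3+ minus Foxp3-, on the log2 scale (vertical). Coloured points passed at an adjusted p under 0.05 (1575 higher and 1204 lower in Foxp3+ cells), and the rises reach 6.25 (Foxp3) whereas the falls end at -3.96 (Igfbp4).

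The 3 other marker genes of the comparison all separated the groups. They were set as its markers with earlier results of these data known, so their values describe the groups and are no separate support. Socs2, a feedback inhibitor of cytokine signals that STAT5 induces, was at 9.71, 9.55 and 9.69 in Foxp3+ and 4.29, 3.62 and 3.54 in Foxp3- cells. It rose by 5.83 ± 0.22, which is 57.0-fold (adjusted p = 6.41e-16), and 4 of its other probe sets passed in the same direction. Across the 13 alternatives the Socs2 difference lay between 2.92 and 6.07. Cd83, a surface protein of activated lymphocytes that stabilises MHC class II molecules, was at 9.19, 9.65 and 9.58 against 4.18, 3.91 and 4.53 and rose 38.6-fold. Igfbp4, a binding protein of insulin-like growth factors that is abundant in naive T cells, went the other way. It was at 7.52, 8.22 and 8.43 in Foxp3+ and 12.01, 11.91 and 12.12 in Foxp3- cells, a fall of 3.96 ± 0.21, and the lowest Foxp3- array lay above the highest Foxp3+ array by more than the spread within either group.

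**Figure D2:**
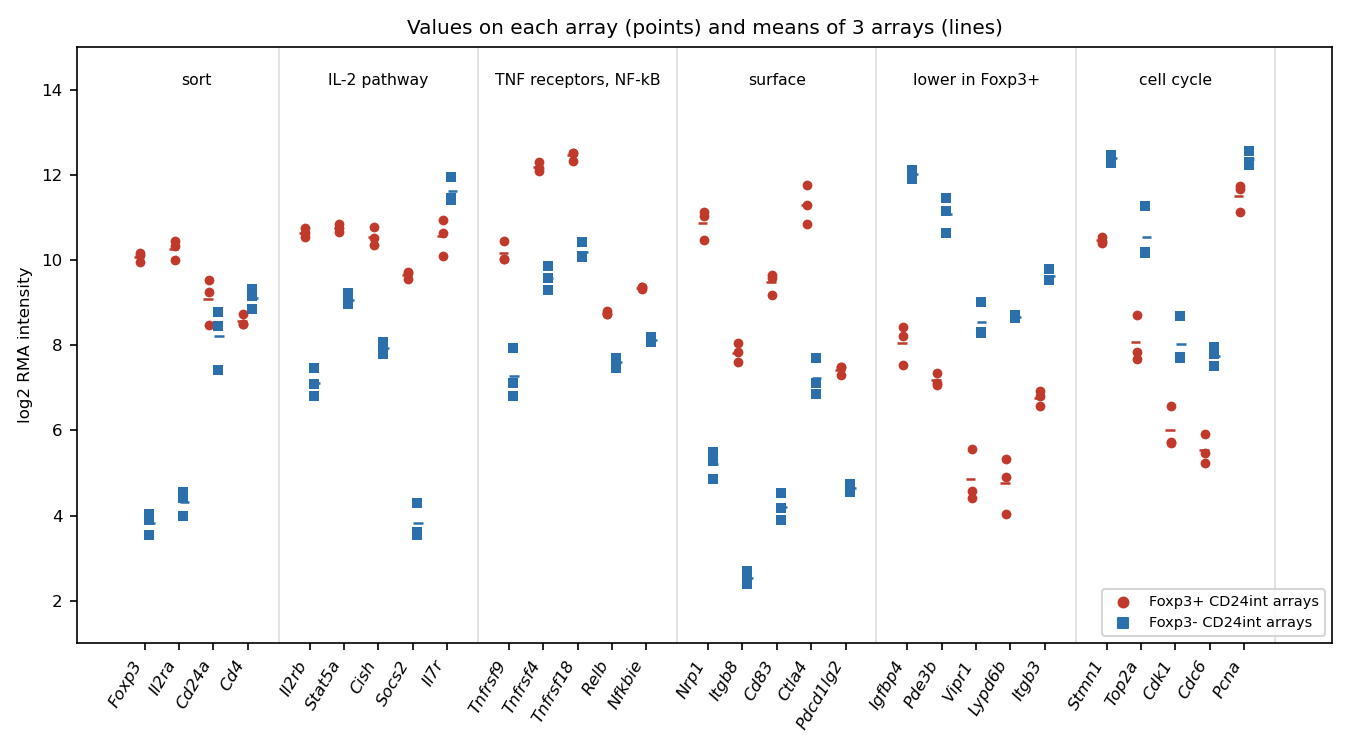
Log2 RMA intensity (vertical) of single genes grouped by role, with 1 point for each of the 3 Foxp3+ (red circles) and 3 Foxp3- (blue squares) CD24int arrays and a line at each group's mean. Foxp3, Socs2 and Cd83 lie above 9 on every Foxp3+ array and below 5 on every Foxp3- array, Igfbp4 lies above 11 on every Foxp3- array, and the Cd24a arrays overlap.

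Genes of the Treg signature rose nearly as a whole. The CD24int counts of this list and of all lists below stand beside 8.66% of all genes that rose and 6.62% that fell. Of 28 measured members, 27 rose and 0 fell by limma (0 were lower at an unadjusted p under 0.05), and the remaining one, Gzmb, a cytotoxic protease, had a difference of -0.18 (adjusted p = 0.822). The median difference of the list was 2.78. The members were taken from general knowledge of Tregs, with earlier results of these data known. They include Foxp3 and Il2ra, which were read with the sort, and the markers Socs2 and Cd83. The rises of these genes are therefore no separate support. Nrp1, the neuropilin receptor found on Tregs of thymic origin, stood at 10.48, 11.13 and 11.03 in Foxp3+ and at 5.49, 5.28 and 4.86 in Foxp3- cells, which is 50.9-fold (adjusted p = 2.51e-15). Ctla4, which removes costimulatory ligands from antigen-presenting cells, was at 11.30, 11.76 and 10.84 against 7.12, 7.69 and 6.84, a rise of 16.9-fold (adjusted p = 5.59e-10). Itgb8 encodes the integrin chain that activates latent TGF-beta. Its values were 7.83, 8.04 and 7.61 against 2.70, 2.39 and 2.52, so the Foxp3- arrays gave a dim signal only. Plagl1, a zinc-finger transcription factor, rose by 5.54 ± 0.23, and Penk, the precursor of enkephalin peptides, by 4.84 ± 0.24. The Plagl1 difference lay between 2.37 and 5.67 across the 13 alternatives. Nt5e, the ectoenzyme CD73 that makes adenosine, was at 8.05, 8.59 and 8.27 against 5.61, 4.91 and 3.41 and rose by 3.66 ± 0.41. Its difference lay between 1.38 and 4.15 across the alternatives.

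Among transcription factors tied to the Treg state, 14 of 34 rose and 10 fell, with a median of 0.21, and the direction differed within families. Foxp3 itself, by which the cells were sorted, is among the 14 rises. The count of falls was 5 without Foxp3+ replicate 1 and 6 with the 2 groups fitted alone. Ikzf2, which encodes Helios, was at 12.61, 12.49 and 12.30 in Foxp3+ and 9.45, 9.11 and 9.34 in Foxp3- cells and rose by 3.17 ± 0.17. Ikzf4, which encodes the related factor Eos, was at 11.09, 10.77 and 10.75 against 8.36, 8.25 and 8.40 and rose by 2.53 ± 0.12. In both genes every Foxp3+ array lay above every Foxp3- array. Gata3, a factor of helper T cells that Tregs also use, rose by 1.07 ± 0.10 with Foxp3+ arrays between 10.27 and 10.44 and Foxp3- arrays between 9.25 and 9.37. Bhlhe40 (2.83 ± 0.22), a repressor induced by T cell activation, and Myb (2.22 ± 0.17), which is needed by effector Tregs, rose further. Id2, an inhibitor of E proteins, fell by 1.71 ± 0.18, with Foxp3- arrays within 10.96 to 10.97 and Foxp3+ arrays within 8.99 to 9.50. Lef1, a factor of the Wnt pathway that maintains naive T cells, was at 10.77, 11.03 and 11.09 against 11.94, 11.93 and 11.96 and fell by 0.98 ± 0.12. Runx3, a factor of the CD8 lineage, fell by 0.85 ± 0.16 and Satb1, a chromatin organiser, by 0.60 ± 0.12. Foxp1, a forkhead relative of Foxp3, had a difference of -0.10.

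Of 19 measured genes of the interleukin-2 receptor, its STAT5 proteins and the feedback genes that STAT5 induces, 11 rose, 2 fell and 6 did not pass, with a median of 0.63, and the falls were 1 when any array but Foxp3+ replicate 1 was left out. Il2rb, the signalling beta chain, was at 10.75, 10.63 and 10.54 in Foxp3+ and 7.47, 7.08 and 6.80 in Foxp3- cells and rose 11.5-fold (adjusted p = 2.4e-13). Cish, a SOCS family inhibitor, was at 10.78, 10.35 and 10.51 against 7.93, 7.79 and 8.08, a rise of 6.13-fold (adjusted p = 1.95e-13). Both genes had all Foxp3+ arrays more than 2 log2 units above all Foxp3- arrays. Stat5a rose by 1.67 ± 0.12 and its neighbour Stat5b by 0.63 ± 0.09. The 11 rises include Il2ra, which was read with the sort, and the marker Socs2. The 2 Pim kinases, which promote survival, went opposite ways, with Pim1 up by 2.16 ± 0.13 and Pim2 down by 1.34 ± 0.12. Il7r, the receptor of interleukin-7 that naive cells depend on, was at 10.94, 10.64 and 10.09 against 11.96, 11.47 and 11.40. It fell by 1.05 ± 0.34 (adjusted p = 0.0374), a call that was lost without any one of the 6 arrays except Foxp3+ replicate 1. Socs3, which restrains signals through STAT3, had a difference of 0.93 that did not pass (adjusted p = 0.0709) but did so without Foxp3+ replicate 3.

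Members of the TNF receptor family and of the NF-kappa B pathway it engages rose more often than they fell. In the receptor family and its adaptors, 11 of 21 rose and 3 fell (1 without Foxp3- replicate 3), with a median of 0.47. Tnfrsf4, which encodes the costimulatory receptor OX40, was at 12.09, 12.31 and 12.17 in Foxp3+ and 9.29, 9.57 and 9.87 in Foxp3- cells, a rise of 2.62 ± 0.18. Tnfrsf18, which encodes GITR, was at 12.33, 12.51 and 12.52 against 10.08, 10.07 and 10.41 and rose by 2.27 ± 0.14. Tnfrsf9, which encodes 4-1BB, rose by 2.87 ± 0.27, with Foxp3- replicate 3 at 7.93 and the other Foxp3- arrays at 7.12 and 6.81. Tnfrsf1b, the TNF receptor of Tregs, rose by 1.90 ± 0.16, whereas Tnfrsf1a, the broadly expressed TNF receptor, fell by 0.67 ± 0.15. Traf1, an adaptor induced by NF-kappa B, rose by 1.42 ± 0.21. Of the 20 NF-kappa B subunits and regulators, 12 rose and 1 fell (0 without Foxp3- replicate 1), with a median of 0.53. Rel, the subunit that takes part in switching Foxp3 on, was at 8.02, 8.86 and 8.69 against 6.89, 6.78 and 7.10 and rose by 1.60 ± 0.17. Relb, the subunit of the alternative pathway, rose by 1.15 ± 0.11, and the inhibitors Nfkbie (1.23 ± 0.10) and Tnip1 (1.13 ± 0.10) rose about as far. Tnfaip3, the ubiquitin-editing inhibitor A20, had a difference of 0.33 (adjusted p = 0.551).

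Of 24 measured ligands and receptors of costimulation and inhibition, 12 rose, 2 fell and 10 did not pass, with a median of 0.55, and the falls were 0 without Foxp3+ replicate 1 and 1 without Foxp3- replicate 1 or 3. Pdcd1lg2, which encodes the PD-1 ligand PD-L2, was at 7.30, 7.48 and 7.49 in Foxp3+ and 4.56, 4.75 and 4.60 in Foxp3- cells, a rise of 6.88-fold (adjusted p = 2.35e-10). Its groups lay apart by many times their spread. Cd200, the ligand of an inhibitory receptor on myeloid cells, rose by 1.80, Cd80, a ligand of CD28 and CTLA-4, by 1.64, and Slamf1, an adhesion receptor among lymphocytes, by 1.25. Of 16 suppressive molecules, 10 rose and 1 fell, with a median of 1.17, and several of them are also in the Treg signature. The fall, of Tgfbr2, was lost without Foxp3+ replicate 1, Foxp3- replicate 1 or Foxp3- replicate 2. Tgfbr1, the type I receptor of TGF-beta, was at 11.00, 11.12 and 11.13 against 8.86, 8.44 and 8.88 and rose by 2.36 ± 0.11. Il1r2, the decoy receptor of interleukin-1, was at 9.36, 9.13 and 8.56 against 4.50, 4.86 and 4.65 and rose by 4.35 ± 0.22. Ebi3, a subunit of interleukins 27 and 35, rose by 2.02 ± 0.23 and Entpd1, the ectoenzyme CD39 that acts before CD73, by 1.54 ± 0.18. Tgfb1, the cytokine itself, had a difference of 0.42 (adjusted p = 0.171).

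Other large rises lay outside those lists or in lists of adhesion and guidance, and Itgae was also counted in the Treg signature. Ccr6, the receptor of the chemokine CCL20, was at 10.27, 9.90 and 9.83 in Foxp3+ and 5.46, 5.73 and 5.39 in Foxp3- cells, a rise of 22.1-fold. Itgae, the integrin chain CD103 that binds E-cadherin, was at 10.99, 11.04 and 10.72 against 8.15, 7.77 and 5.93 and rose by 3.63 ± 0.42. The Foxp3- arrays of Itgae were spread widely, and the highest of them still lay below every Foxp3+ array. Dusp4, a phosphatase that inactivates ERK, was at 10.02, 11.14 and 10.76 against 5.86, 6.16 and 6.61, a rise of 4.43 ± 0.33. Hopx, a homeodomain-only protein needed by induced Tregs, rose by 4.12 ± 0.22. Sdc4, a heparan sulphate proteoglycan (4.13), Ntn4, a secreted netrin (3.92), and Ptger2, a receptor of prostaglandin E2 (3.30), were also among the largest rises.

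The largest falls included surface proteins, receptors and enzymes. Lypd6b, a GPI-anchored protein, was at 4.04, 4.91 and 5.33 in Foxp3+ and 8.68, 8.63 and 8.70 in Foxp3- cells and fell by 3.91 ± 0.21. Pde3b, a phosphodiesterase that breaks down cyclic AMP and that Foxp3 is known to repress, was at 7.11, 7.35 and 7.06 against 11.46, 11.15 and 10.63 and was 15.0-fold lower (adjusted p = 3.8e-09). Vipr1, a receptor of vasoactive intestinal peptide that raises cyclic AMP, was at 5.57, 4.58 and 4.41 against 9.02, 8.29 and 8.30 and fell by 3.68 ± 0.26. In each of these 3 genes the groups were separated by over 2 log2 units. Itgb3, the beta chain of the vitronectin receptor, fell by 2.85 ± 0.20, while Itgav, a partner chain, rose by 1.05. Pxylp1, a phosphatase of proteoglycan synthesis (-3.91 ± 0.24), Chl1, a neural adhesion molecule (-3.25 ± 0.26), and Pdlim4, a cytoskeletal adaptor (-3.12 ± 0.23), fell as well. Il21, the cytokine of follicular helper T cells, was at 3.03, 3.18 and 3.90 against 5.62, 5.48 and 5.77 and fell by 2.25 ± 0.22.

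Among genes of naive T cells and of the T cell receptor machinery, most members did not pass, and those that passed fell with 1 exception. Of 17 genes of naive cells, 0 rose by limma (0 also at an unadjusted p under 0.05) and 8 fell, with a median of -0.43. That count was 5 without Foxp3+ replicate 1, Foxp3+ replicate 2 or Foxp3- replicate 1, and 4 without Foxp3- replicate 3. Besides Lef1 and the marker Igfbp4, Actn1, a cytoskeletal linker, fell by 0.87 ± 0.14. Ccr7 and Klf2, which guide naive cells to lymph nodes, had differences of 0.10 (adjusted p = 0.766) and -0.14 (adjusted p = 0.86). Of 29 measured genes of the receptor complex and its proximal kinases and adaptors, 1 rose and 11 fell, with a median of -0.23. The falls numbered 7 without Foxp3+ replicate 1, Foxp3- replicate 1 or Foxp3- replicate 3, and 6 with the 2 groups fitted alone. Pag1, which anchors the inhibitory kinase Csk, fell by 1.05 ± 0.15, and Themis, which is needed for positive selection, by 0.73 ± 0.12. Zap70, the receptor's kinase, fell by 0.49 ± 0.11, and Cblb, a ubiquitin ligase that dampens the receptor, rose by 0.56 ± 0.10. Cd247, the zeta chain, fell by 0.59 ± 0.10, and another of its probe sets passed in the opposite direction.

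Genes that signals through the T cell receptor induce did not move as one. The counts in this paragraph stand beside 8.66% of all genes that rose and 6.62% that fell. Of 24 measured, 8 rose and 1 fell (2 without Foxp3+ replicate 3), with a median of 0.12. Rgs16, a regulator of G protein signals, was at 9.45, 9.98 and 10.02 in Foxp3+ and 7.13, 7.51 and 6.95 in Foxp3- cells and rose by 2.62 ± 0.23. Nr4a3 (1.56 ± 0.13) and Nr4a2 (1.66 ± 0.31), nuclear receptors of that response, rose, while their relative Nr4a1 had a difference of 0.33 (adjusted p = 0.186). Cd5 (0.16, adjusted p = 0.5) and Cd69 (0.08, adjusted p = 0.911), 2 surface readouts of receptor signal strength, and Egr1 (-0.45, adjusted p = 0.0559), an immediate early factor, did not pass, although Egr1 did so without Foxp3+ replicate 3. Among 15 feedback genes of the ERK pathway, 4 rose and 5 fell (3 without replicate 1 or 2 of either group), with a median of 0.13. Spry1, a Sprouty inhibitor, rose by 1.97 ± 0.21 beside Dusp4, whereas Dusp10, a phosphatase of JNK and p38, fell by 0.99 ± 0.12. Of 17 genes of PI3K and mTOR, 2 rose and 3 fell, with a median of 0.04, beside 8.66% and 6.62% of all genes. Phlpp1, a phosphatase that switches AKT off, was at 9.15, 9.42 and 9.14 against 6.45, 6.07 and 6.61, a rise of 2.86 ± 0.13. Sgk1, a kinase related to AKT, fell by 1.49 ± 0.21.

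**Figure D3:**
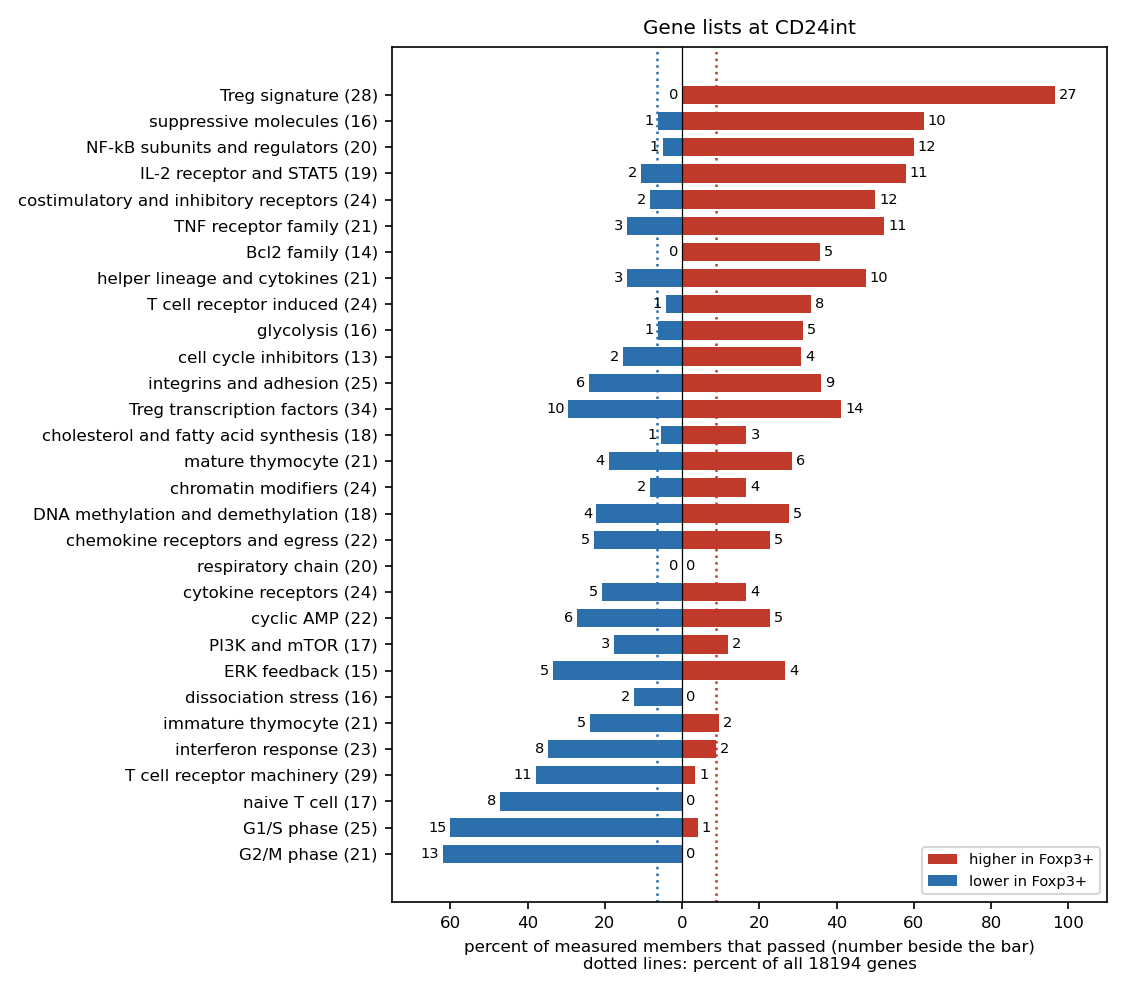
For each gene list, the bars give the percent of its measured members (number in brackets) that passed at CD24int, to the right for rises in Foxp3+ cells and to the left for falls, with the count beside each bar and dotted lines at the 8.66% and 6.62% of all 18194 genes. The Treg signature reaches furthest to the right (27 of 28) and the G2/M genes furthest to the left (13 of 21).

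Many genes of the cell cycle fell, beside 6.62% of all genes that fell and 8.66% that rose. Of 25 measured genes of the G1/S transition, 1 rose and 15 fell, with a median of -0.75, and of 21 genes of G2 and mitosis 0 rose by limma and 13 fell, with a median of -1.76. At an unadjusted p under 0.05, 0 of the G2/M genes were higher and 20 lower. The 13 falls were 5 without Foxp3- replicate 1, Foxp3+ replicate 2 or Foxp3+ replicate 3. The mean log2 value of the G2/M genes was 6.98, 6.23 and 6.18 on the Foxp3+ arrays and 8.98, 7.77 and 7.82 on the Foxp3- arrays, so replicate 1 was the highest of each group and the groups did not overlap. The G1/S genes averaged 8.45, 8.21 and 8.30 against 9.22, 8.91 and 9.08.

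The upstream sequences of 4 of the genes that fell are shown because each holds a match to the E2F motif, the element through which E2F factors drive genes of DNA replication; these 4 were chosen after their values were seen. Each is the 250 bases before the transcription start of the RefSeq gene in mouse build GRCm38.p6, read 5′ to 3′ on the gene's strand, with matches to TTTNNCGC on either strand in capitals. Cdc6 lies at chr11:98907901-98908150 (+), Cdk1 at chr10:69352913-69353162 (-), Cdk2 at chr10:128705052-128705301 (-) and Mcm5 at chr8:75109259-75109508 (+).
Cdc6: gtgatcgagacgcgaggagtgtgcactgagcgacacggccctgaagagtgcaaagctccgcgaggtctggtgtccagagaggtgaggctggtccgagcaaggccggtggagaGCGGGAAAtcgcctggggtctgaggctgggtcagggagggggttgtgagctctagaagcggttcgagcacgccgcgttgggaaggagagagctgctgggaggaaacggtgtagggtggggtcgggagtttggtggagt
Cdk1: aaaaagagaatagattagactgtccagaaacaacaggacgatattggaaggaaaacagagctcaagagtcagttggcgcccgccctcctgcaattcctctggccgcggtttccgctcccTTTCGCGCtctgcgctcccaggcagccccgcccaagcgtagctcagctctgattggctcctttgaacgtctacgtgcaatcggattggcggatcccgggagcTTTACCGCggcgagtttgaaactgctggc
Cdk2: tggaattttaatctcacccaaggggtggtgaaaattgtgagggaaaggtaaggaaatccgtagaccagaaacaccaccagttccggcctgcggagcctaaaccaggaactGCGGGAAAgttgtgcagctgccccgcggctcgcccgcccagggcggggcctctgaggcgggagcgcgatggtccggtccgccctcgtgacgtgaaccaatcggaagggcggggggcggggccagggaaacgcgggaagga
Mcm5: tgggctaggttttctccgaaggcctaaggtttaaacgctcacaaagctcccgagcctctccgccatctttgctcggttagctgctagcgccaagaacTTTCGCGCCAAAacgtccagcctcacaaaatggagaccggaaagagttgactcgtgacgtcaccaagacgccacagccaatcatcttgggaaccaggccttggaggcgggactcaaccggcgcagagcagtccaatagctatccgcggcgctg
Cdc6 and Cdk2 hold 1 match each, at -138 and -140 from the start, and on the strand shown both read GCGGGAAA. Cdk1 holds 2 matches, at -131 and -29, and Mcm5 holds 2 that overlap, at -153 and -149, one on each strand. A match is a description of letters and no evidence of binding.

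The genes behind these sequences fell as follows. Cdc6, which loads the replicative helicase, was at 5.92, 5.24 and 5.47 in Foxp3+ and 7.96, 7.52 and 7.79 in Foxp3- cells, a fall of 2.21 ± 0.38 (adjusted p = 0.000116). Mcm5, a subunit of that helicase, was at 9.82, 9.79 and 9.99 against 10.63, 10.53 and 10.69 and fell by 0.75 ± 0.14 (adjusted p = 0.000194). Cdk2, the kinase of S phase entry, was at 8.36, 8.34 and 8.56 against 9.35, 9.09 and 9.09, and its fall of 0.75 ± 0.10 was lost when all probe sets of a gene were averaged. Cdk1, the kinase of mitosis, was at 6.58, 5.70 and 5.74 against 8.68, 7.69 and 7.73. Its groups did not overlap, and replicate 1 was the highest array of each. In the 300 bases from 250 before to 50 after a start, counting a gene if any of its promoters held it, the E2F motif was found in 9 of 22 cell cycle genes that fell and had a RefSeq promoter (40.9%). The share in cell cycle genes that did not fall was not counted. The motif was found in 39 of 243 genes that fell at least 2-fold (16.0%), or in 34 of 228 (14.9%) without the cell cycle lists. It was found in 34 of 409 that rose at least 2-fold (8.3%) and in 1191 of all 14453 genes tested that had a promoter (8.2%). Motifs of 3 other factors, again on either strand, were counted in the same windows. These shares are again of genes with a promoter. A STAT motif (TTCNNNGAA) was in 11.2% of the genes that rose at least 2-fold, 7.0% of those that fell at least 2-fold and 8.6% of all. A kappa B motif (GGG, any 5 bases and CC) was in 76.3%, 67.1% and 66.2%, and a forkhead motif (TGTTTAC) in 5.1%, 2.9% and 3.4%.

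Further cell cycle genes filled in the same picture. Stmn1, a microtubule destabiliser of dividing cells, was at 10.45, 10.39 and 10.53 in Foxp3+ and 12.45, 12.28 and 12.46 in Foxp3- cells, 3.82-fold lower (adjusted p = 3.19e-08), and no array of one group came near those of the other. Top2a, the topoisomerase of mitotic chromosomes, was at 8.71, 7.69 and 7.85 against 11.26, 10.19 and 10.17 and fell by 2.46 ± 0.57 (adjusted p = 0.00303). Pcna, the sliding clamp of replication, fell by 0.85 ± 0.15, and Uhrf1, which brings DNA methylation to new strands, by 1.48 ± 0.30. Plk1 (-1.04, adjusted p = 0.101) and Cdc20 (-1.01, adjusted p = 0.0643), 2 mitotic regulators, did not pass, although Cdc20 did so without Foxp3- replicate 2. Of 13 cell cycle inhibitors, 4 rose (2 without Foxp3- replicate 1) and 2 fell, with a median of 0.06. Rb1, the retinoblastoma protein that holds E2F factors back, rose by 0.79 ± 0.14, and Cdkn2c, which encodes p18, fell by 1.47 ± 0.35.

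Receptors of migration and adhesion were split. The counts stand beside 8.66% of all genes that rose and 6.62% that fell. Of 22 chemokine receptors and egress genes, 5 rose and 5 fell, with a median of -0.01. The rises numbered 2 or 3 without any one array but Foxp3- replicate 1, and the falls 3 without Foxp3+ replicate 2. Besides Ccr6, Cxcr5, the receptor that leads cells to B cell follicles, rose by 2.35 ± 0.26, while Gpr183, the oxysterol receptor, fell by 1.16 ± 0.14. Of 25 integrins and adhesion molecules, 9 rose and 6 fell, with a median of 0.15. Icam1, a ligand of the integrin LFA-1, rose by 1.51 ± 0.10 and Cd44, the hyaluronan receptor of activated cells, by 1.38 ± 0.16. Of 24 cytokine receptors, 4 rose and 5 fell (3 without Foxp3- replicate 1 or 2), with a median of -0.02. Ifngr1, a chain of the interferon-gamma receptor, rose by 1.50 ± 0.15, and Tgfbr3, a coreceptor of TGF-beta, fell by 2.16 ± 0.17. Of 22 genes of cyclic AMP, 5 rose and 6 fell, with a median of -0.06, and Crem, a cyclic AMP responsive factor, rose by 1.78 ± 0.21 beside Ptger2.

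Lists of helper cytokines, survival genes and interferon response genes held some large changes. Their counts stand beside 8.66% of all genes that rose and 6.62% that fell, and the 2 interferon rises lie near that share. Of 21 genes of helper lineages and cytokines, 10 rose and 3 fell, with a median of 0.42. Lta, which encodes lymphotoxin alpha, was at 9.35, 9.31 and 9.27 in Foxp3+ and 6.94, 6.55 and 6.79 in Foxp3- cells and rose by 2.55 ± 0.12. Rora, a factor of type 17 helper cells, rose by 2.02 ± 0.16. Of 14 Bcl2 family genes, 5 rose and 0 fell by limma (1 was lower at an unadjusted p under 0.05), with a median of 0.35. They included both the survival gene Bcl2l1 (1.04 ± 0.15) and the death genes Pmaip1 (2.63 ± 0.38) and Bid (0.84). Bcl2l11, which encodes the death protein Bim, had a difference of 0.45 (adjusted p = 0.0635) and passed without Foxp3- replicate 3. Of 23 interferon response genes, 2 rose and 8 fell (5 without Foxp3+ replicate 1), with a median of -0.16. Gbp3, a guanylate-binding protein, was at 10.04, 10.32 and 10.00 against 7.46, 7.29 and 7.60 and rose by 2.67 ± 0.16. Oas2, an antiviral synthetase, was at 7.79, 7.48 and 7.43 against 10.30, 9.94 and 9.69 and fell by 2.41 ± 0.20, so the 2 genes moved in opposite directions with no overlap in either.

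The next lists cover metabolism, chromatin, thymocyte maturity and tissue handling. Their counts are to be read beside the 8.66% of all genes that rose and the 6.62% that fell. Of 16 glycolysis genes, 5 rose and 1 fell (2 without Foxp3- replicate 2 or Foxp3+ replicate 3), with a median of 0.07, and the glucose transporter Slc2a3 (1.24 ± 0.12) and the hexokinase Hk2 (1.08 ± 0.11) were among the rises. Of 20 respiratory chain genes, 0 passed by limma and 1 had an unadjusted p under 0.05, with a median of 0.03. Of 18 genes of cholesterol and fatty acid synthesis, 3 rose (1 without Foxp3- replicate 2 or Foxp3+ replicate 3) and 1 fell (0 without any one array but Foxp3+ replicate 1 and Foxp3- replicate 3), with a median of 0.14. Of 18 genes of DNA methylation and demethylation, 5 rose and 4 fell, with a median of 0.12. Tet1, which oxidises methylcytosine, fell by 1.40 ± 0.19 and Dnmt1, the maintenance methyltransferase, by 1.00 ± 0.22. Of 24 chromatin modifiers, 4 rose (2 without Foxp3+ replicate 2, Foxp3- replicate 2 or Foxp3- replicate 3) and 2 fell, with a median of -0.03, and Hdac9, a class II deacetylase, rose by 2.88 ± 0.19. Of 21 genes of immature thymocytes, 2 rose (1 without replicate 2 of either group) and 5 fell, with a median of -0.02, and Sox4, a factor of early thymocytes, fell by 1.00 ± 0.23. Of 21 genes of mature thymocytes, 6 rose and 4 fell (2 without Foxp3+ replicate 2, Foxp3- replicate 2 or Foxp3- replicate 3), with a median of -0.09, and S100a4, a calcium-binding protein of activated cells, rose by 2.29 ± 0.49. Of 16 genes that tissue dissociation induces, 0 rose by limma (0 at an unadjusted p under 0.05) and 2 fell, both of them heat shock genes. Hspa1a was at 8.32, 9.51 and 9.42 in Foxp3+ and 10.93, 11.90 and 11.45 in Foxp3- cells and fell by 2.34 ± 0.55, and Hspa1b fell by 1.51 ± 0.38. The part of tissue handling in these results was not tested.

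Markers of other cell types that a thymus sort could hold moved in several lists. Over all genes tested, 8.66% rose and 6.62% fell. Of 9 NK and NKT cell markers, 1 rose and 5 fell, with a median of -0.87, and their summed intensity was 526 to 872 in Foxp3+ and 460 to 910 in Foxp3- cells. Mean log2 values under 5 were found for 6 of the 9 in Foxp3+ and 3 in Foxp3- cells. Klrd1, an NK receptor chain, was at 3.61, 3.29 and 2.64 in Foxp3+ and 6.64, 6.52 and 4.86 in Foxp3- cells, and Zbtb16, the factor that defines NKT cells, at 4.72, 4.98 and 5.00 against 7.52, 7.28 and 5.88. In both genes Foxp3- replicate 3 was the lowest of its group. Nkg7, a granule protein, was the rise (2.29 ± 0.37). Of 4 gamma delta T cell markers, 0 rose and 3 fell, with a median of -1.19 and summed intensities of 163 to 206 against 264 to 837, and 2 and 1 of them had means under 5. Trgv4, a gamma chain segment, was at 5.72, 6.23 and 5.88 against 8.49, 7.82 and 6.85. Their part in the results was not tested.

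Antigen-presenting cells gave 0 rises by limma (2 at an unadjusted p under 0.05) and 6 falls of 12 markers, 3 falls without replicate 1 of either group, with a median of -0.40. Their sums were 1196 to 1486 in Foxp3+ and 1316 to 1451 in Foxp3- cells, and 3 of the 12 had means under 5 in each group. H2-Aa, an MHC class II chain, fell by 1.29, a call that was lost without Foxp3- replicate 1. Of 7 B cell markers, 1 rose (Ighm, the heavy chain of IgM, by 1.51 ± 0.28) and 0 fell. Their sums were 827 to 1290 against 413 to 518, and 5 and 6 of them had means under 5. Of 6 CD8 T cell markers, 2 rose and 1 fell, with sums of 2309 to 2791 against 880 to 917, and 1 and 2 had means under 5. Itgae, which is also a Treg gene, was one of the 2 rises and made up most of the Foxp3+ sum. Neither Cd8a (adjusted p = 0.134) nor Cd8b1 (adjusted p = 0.308) passed by limma. The part of these cells in the results was not tested.

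No marker passed by limma in 4 further lists, and at an unadjusted p under 0.05 they held 1 double-positive marker, 1 epithelial marker, 0 erythroid and 0 liver markers. The 9 markers of double-positive thymocytes summed to 406 to 517 in Foxp3+ and 480 to 633 in Foxp3- cells, with 3 and 4 means under 5. The 8 markers of thymic epithelium summed to 246 to 269 against 276 to 410, with 4 means under 5 in each group, and 1 of them fell without Foxp3+ replicate 1. The 3 erythroid markers, all with means under 5, summed to 37 to 42 against 38 to 46, and the 6 liver markers to 133 to 159 against 126 to 153, with 4 means under 5 in each group.

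The comparison at CD24int was set beside the same comparison at CD24hi and at CD24lo, to show where the Foxp3 difference depended on maturity. At CD24hi 1524 genes rose (8.38%) and 1756 fell (9.65%), and at CD24lo 1792 rose (9.85%) and 2037 fell (11.2%). Whether a difference at CD24int was itself different from that at another level was tested as an interaction in the same limma fit. Against CD24hi, 281 of 18194 genes passed (1.54%), with the CD24int difference more positive in 184 (1.01%) and more negative in 97 (0.533%), a split that was 172 to 145 after quantile normalization of the arrays. Against CD24lo, 905 passed (4.97%), 649 more positive (3.57%) and 256 more negative (1.41%). With the replicate number as a block, 1041 genes passed against CD24hi and 1533 against CD24lo. Both tests share the 6 CD24int arrays, so their results are given side by side. One CD24hi array, Foxp3- replicate 3, carried liver transcripts, with Alb, the gene of serum albumin, at 11.65 against 3.78 to 4.17 on the other 5 CD24hi arrays and 3.83 to 4.23 at CD24int. Without that array the CD24hi interaction was more negative in 58 genes instead of 97. Without Foxp3- CD24int replicate 1 it passed in 185 genes and was more negative in 48, and without Foxp3+ CD24hi replicate 1 it was more negative in 60.

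**Figure D4:**
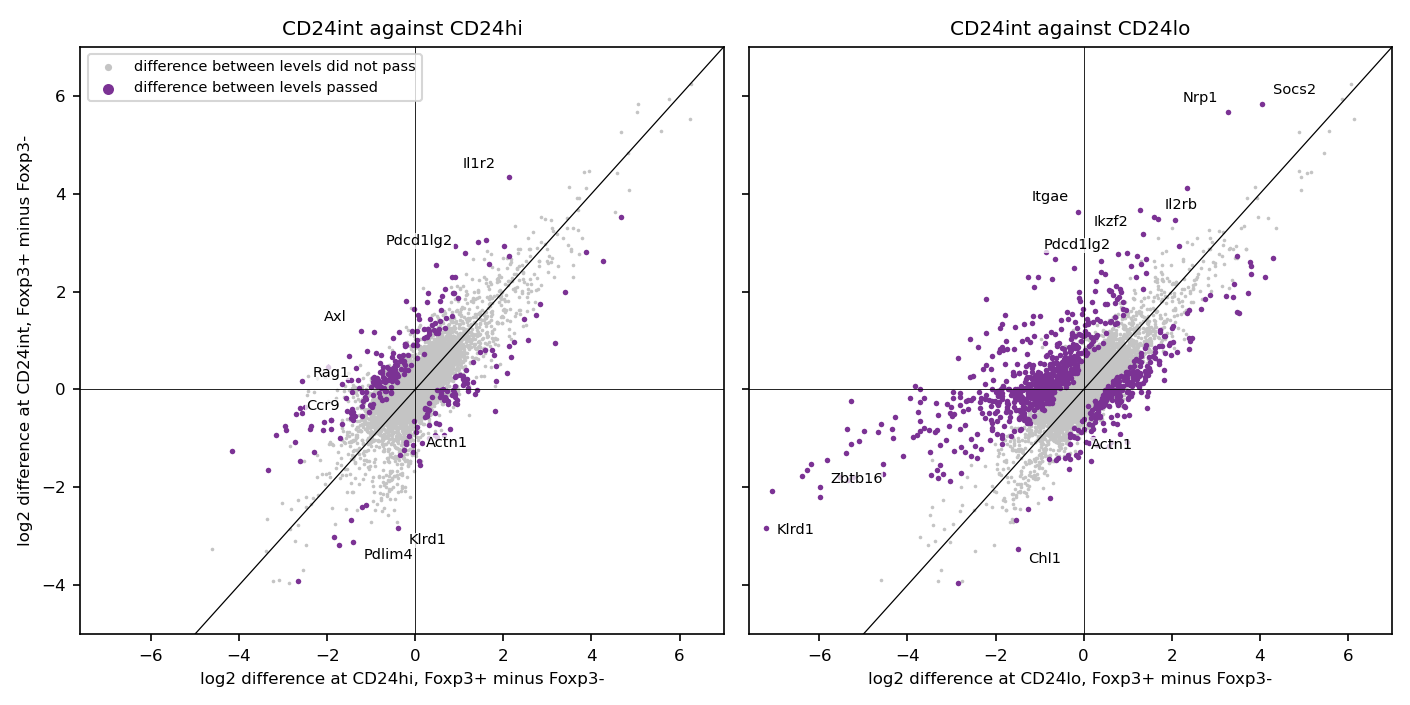
Each point is a gene, placed by its Foxp3+ minus Foxp3- difference (log2) at CD24hi (left panel) or CD24lo (right panel) on the horizontal axis and at CD24int on the vertical axis, and the line marks equal differences. Purple points are the 281 and 905 genes whose difference between the levels passed, with Rag1 and Ccr9 to the left of the line in the CD24hi panel and Itgae and Klrd1 to the left of it in the CD24lo panel.

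Foxp3, Il2ra and Itgb8 had large differences at all 3 levels. Foxp3 had a difference of 6.27 at CD24hi, 6.25 at CD24int and 6.08 at CD24lo, and neither interaction passed. Il2ra had differences of 5.76, 5.94 and 5.85 and Itgb8 of 5.58, 5.29 and 5.57, in the same order of levels. Of the 28 genes of the Treg signature, 24 rose and 0 fell at CD24hi, and 22 rose and 3 fell at CD24lo. Among all genes, 8.38% rose at CD24hi, and 9.85% rose and 11.2% fell at CD24lo. Of the 21 G2/M genes, 1 fell at CD24hi, 13 at CD24int and 4 at CD24lo. Of the 25 G1/S genes, 4, 15 and 13 fell in the same order. Among all genes, 9.65%, 6.62% and 11.2% fell at these levels. The median differences were -0.37, -1.76 and -1.15 for the G2/M genes and -0.12, -0.75 and -0.63 for the G1/S genes. These counts and medians were not tested against each other, and for Top2a (differences of -0.91, -2.46 and -1.75), Cdk1 and Cdc6 neither interaction passed. Stmn1 also had no passing interaction, with differences of -1.28, -1.93 and -1.47.

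Against CD24hi, a selection of the passing interactions is given, with Rag1 and Ccr9 as genes of earlier thymocytes. Other markers of immature or double-positive thymocytes did not all follow. The interactions of Cd24a (1.46, adjusted p = 0.282) and Cd8a (0.885, adjusted p = 0.219) did not pass by limma. Genes not named here also had passing interactions, among them 1 of 2.91 (adjusted p = 0.000649), above that of Rag1. Rag1 had a difference of -2.57 at CD24hi and 0.17 at CD24int, with Foxp3- CD24hi cells at a mean of 6.77 and both CD24int groups below 4, and the interaction was 2.75 (adjusted p = 8.15e-05). Ccr9, the chemokine receptor of immature thymocytes, went from -2.72 to -0.51 (interaction 2.21, adjusted p = 4.65e-06). The CD24int fall of Ccr9 by itself was lost without Foxp3+ replicate 1, Foxp3+ replicate 2 or Foxp3- replicate 3. Il1r2 had a difference of 2.12 at CD24hi and 4.35 at CD24int (interaction 2.22, adjusted p = 0.000172). Pdcd1lg2 went from 1.13 to 2.78 (1.65, adjusted p = 0.00226) and Gata3 from 0.24 to 1.07 (0.82, adjusted p = 0.00238). Axl, a receptor kinase that binds apoptotic cells, had a difference of -1.22 at CD24hi and 1.19 at CD24int, an interaction of 2.41. Pdlim4 had a difference of -1.41 at CD24hi and -3.12 at CD24int, and its interaction of -1.72 passed (adjusted p = 0.00483). The 7 interactions of Rag1, Ccr9, Il1r2, Pdcd1lg2, Gata3, Axl and Pdlim4 passed without Foxp3- CD24hi replicate 3 as well.

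Against CD24lo, several Treg genes had the larger difference at CD24int. Itgae was at a mean of 11.41 in Foxp3+ and 11.54 in Foxp3- CD24lo cells, a difference of -0.13, so the interaction with the CD24int difference was 3.77 (adjusted p = 0.000165). Nrp1 had a difference of 3.29 at CD24lo (interaction 2.38, adjusted p = 1.91e-05), with Foxp3- cells at 5.21 at CD24int and 8.21 at CD24lo. Il2rb went from 3.53 at CD24int to 1.60 at CD24lo (1.93, adjusted p = 1.4e-05) and Ikzf2 from 3.17 to 1.35 (1.82, adjusted p = 1.4e-05). In each of these 4 genes the Foxp3- mean was higher at CD24lo than at CD24int. Pdcd1, which encodes PD-1, had differences of 1.27 at CD24int and -1.55 at CD24lo (2.82, adjusted p = 6.88e-07). Ikzf4 (2.53 at CD24int, 3.81 at CD24lo, interaction -1.28, adjusted p = 1.37e-05) and Tnfrsf4 (2.62 and 3.79, -1.17, adjusted p = 0.00408) had the smaller difference at CD24int.

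Markers of unconventional T cells were far higher in the Foxp3- than in the Foxp3+ CD24lo cells. Among all genes, 9.85% rose and 11.2% fell at CD24lo. At CD24lo 0 of the 9 NK and NKT markers rose and 9 fell, with a median of -3.34, and 0 of the 4 gamma delta markers rose and 4 fell, with a median of -4.95. Klrd1 had a difference of -2.83 at CD24int and -7.20 at CD24lo, Zbtb16 of -1.99 and -5.99, and Trgv4 of -1.78 and -6.39. Their Foxp3- means at CD24lo were 9.74, 10.90 and 12.38. Their part in the CD24lo interactions of the Treg genes was not tested.

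**Figure D5:**
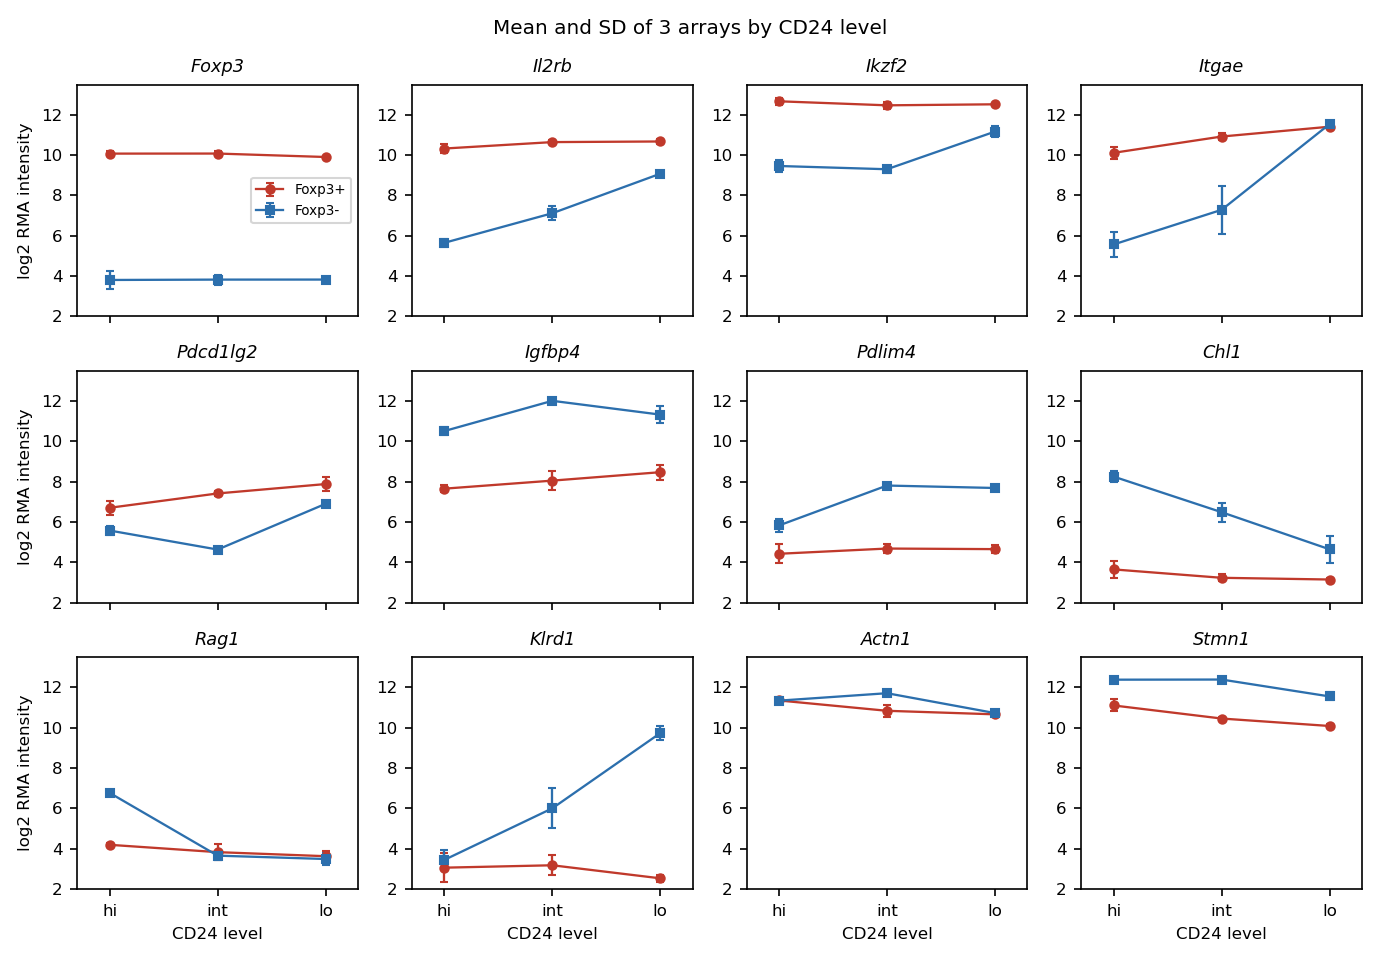
Mean log2 RMA intensity with its SD (n = 3 arrays) of single genes in Foxp3+ (red circles) and Foxp3- cells (blue squares) at CD24hi, CD24int and CD24lo. Foxp3 stays apart at each level (differences of 6.27, 6.25 and 6.08), the Foxp3- means of Il2rb and Itgae are highest at CD24lo, and the Rag1 groups differ by 2.57 at CD24hi and 0.17 at CD24int.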

How the data were processed

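RNA was extracted with RNeasy columns, 50 ng was labelled with biotin, and the 27 samples were hybridised to Affymetrix 3′ arrays, per the labels' protocols. The authors' deposited intensities come from RMA, per the submitters' processing notes, a method that adjusts for background, brings arrays to one scale and merges probes into probe sets; its version and settings are not given in the sources used here. The values ran from 3.55 to 24083 with array medians of 30.3 to 32.0, so a linear scale was assumed and log2 was taken with no added constant. The number of arrays limits the precision; within groups the arrays correlated at 0.986 to 0.996.

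Of 45101 probe sets, 34958 had 1 gene symbol in the platform annotation, 932 several and 9211 none, and a gene was read from its brightest single-symbol probe set, 9012 of 18194 genes having several. Levels of different genes were not compared. Group means of all 9 groups of 3 arrays were fitted with limma 3.58.1 in R 4.3.3 (lmFit, eBayes), with Benjamini-Hochberg adjustment over all genes at 0.05, and interactions were contrasts of the same fit. The fit was tested on simulated data. Upstream sequences are RefSeq's on GRCm38.p6, and matched 14453 of the genes tested.

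Genes were named by a rule: the marker genes, the 30 largest passing rises and falls without overlap, up to 8 passing and 4 other members of each list, markers of other cells, and the largest interactions. Not every gene that the rule gave is named in the text. The members, lists and tests were chosen with earlier results of these data known. The alternatives tried were a replicate block, the compared groups alone, quantile normalization, the mean of a gene's probe sets, no dim genes (mean log2 under 5), log2(value + 16), an intensity trend in the variances, and each array left out in turn.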

Additional observations from a re-analysis of the deposited data

Results flagged for a closer look

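For the genes named above, 58 tests of a difference between CD24 levels passed in limma, and 38 of them did so in every one of up to 19 alternatives. All values here are the Foxp3+ minus Foxp3- difference at CD24int minus the same difference at another level, on the log2 scale.

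Against CD24hi, the CD24int difference was the more positive for Rag1 (2.75), Axl (2.41, or 1.33 with the mean of all probe sets), Il1r2 (2.22), Ccr9 (2.21), Pdcd1lg2 (1.65), Slc2a3 (0.95), Gata3 (0.82), Relb (0.64) and Slamf1 (0.57). It was the more negative for Klrd1 (-2.44), Pdlim4 (-1.72), Lypd6b (-1.24), Oas2 (-1.19), Il2rb (-1.15), Actn1 (-0.88) and Cblb (-0.75). The tests of Klrd1, Lypd6b, Oas2, Il2rb, Actn1, Relb, Slamf1, Slc2a3 and Cblb did not pass in every alternative. All of them but Slc2a3 and Cblb were lost without Foxp3- CD24hi replicate 3, the array with liver transcripts, and in other alternatives as well.

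Against CD24lo, the CD24int difference was the more positive for the lymphocyte genes Trgv4 (4.61), Klrd1 (4.38), Zbtb16 (4.00), Nkg7 (3.33) and Gzmb (2.79). The same held for Itgae (3.77), S100a4 (3.54), Pdcd1 (2.82), Nt5e (2.39), Nrp1 (2.38), Myb (1.94), Il2rb (1.93), Ikzf2 (1.82), Pdcd1lg2 (1.80), Hopx (1.79) and Socs2 (1.78). Smaller values of that sign were those of Entpd1 (1.58), Rora (1.41), Gpr183 (1.31), Tnfrsf1b (1.09), Id2 (1.07), Bid (0.99), Hk2 (0.91), Cd44 (0.79) and Icam1 (0.63). With the mean of all probe sets Nt5e was at 0.76 and Socs2 at 0.61, and both still passed. For Id2 and Gpr183 both differences were negative and the one at CD24lo the larger in size.

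The CD24int difference was the more negative than that at CD24lo for Chl1 (-1.76), Cxcr5 (-1.45), Ikzf4 (-1.28), Dusp10 (-1.20), Ccr7 (-1.17), Tnfrsf4 (-1.17), Igfbp4 (-1.10), Pim2 (-0.99), Tet1 (-0.98), Cd4 (-0.91), Themis (-0.91), Actn1 (-0.81), Nr4a3 (-0.78), Lef1 (-0.77), Slamf1 (-0.75), Foxp1 (-0.68) and Stat5b (-0.56). The tests of Cd44, Igfbp4, Cxcr5, Tet1, Cd4, Foxp1, Actn1, Nr4a3, Stat5b, Bid and Tnfrsf1b did not pass in every alternative.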

How the results depend on the processing

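At CD24int 111 of the 120 named genes that passed did so in each alternative that tested them, which were 13, or 12 for Cd80, Chl1, Hdac9, Il21 and Klrd1, absent without dim genes. Chd9 alone reversed, to -0.10 with the mean of all probe sets, 1 of which had passed in the opposite direction. Sizes moved further than calls for some genes. Among others, the smallest difference was 1.17 for Tgfbr1, 1.46 for Hdac9, -1.25 for Top2a and -1.39 for Chl1. Leaving out 1 array gave 2276 to 2491 genes (1236 to 1496 up, 881 to 1074 down), the compared groups alone 2010 and quantile normalization 3008 (1506 up, 1502 down). The interaction with CD24hi ranged from 185 to 313 genes (125 to 222 up, 48 to 108 down) when 1 array was left out and was 166 (117 up, 49 down) with the compared groups alone; that with CD24lo ranged from 710 to 837 (527 to 637 up, 176 to 262 down).

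Groups share replicate digits in the labels. At CD24int the same-numbered arrays' deviations correlated at 0.27, -0.05 and 0.43, and those of other-numbered arrays at -0.39 to 0.12. Same-numbered arrays correlated at 0.34, 0.11 and 0.25 at CD24hi and at 0.28, 0.10 and 0.27 at CD24lo. Of these same-numbered values only the -0.05 at CD24int was below 0. No label says what the digits mark, so they were not taken as pairs in the main fit. With the replicate block 3935 genes passed at CD24int, all 2779 among them, and the interactions passed in 1041 genes (628 up, 413 down) against CD24hi and 1533 (1019 up, 514 down) against CD24lo. All 21 G2/M genes fell with the block, and 20 with the compared groups alone. The cause of these shifts was not tested.

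The 3 arrays of a group and low intensity limit what can be seen: at CD24int the median standard error was 0.15, and 0.21 for an interaction. Leaving out dim genes reduced the falls among NK and NKT markers from 5 to 3, since dim markers were then not tested.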
